A study of Mus musculus with 4 samples.

Results

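The Bcl2 family apoptosis genes described here are 8 genes picked by symbol: the survival genes Bcl2, Bcl2l1 and Mcl1, and the death-promoting genes Bax, Bak1, Bad, Bid and Bcl2l11. Every probe set annotated to exactly 1 of these symbols was taken, which gave 22 probe sets of 7 genes among the 20380 probe sets of 12393 genes with a single symbol. No probe set was paired with Bax in the annotation used, so Bax was not analysed here. Of the 22 probe sets, 13 of 6 genes were bright enough on average to enter the test, and both probe sets of Bid and 7 others were not.

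The Bcl2 family decides whether a cell opens the outer membrane of its mitochondria, the step that releases cytochrome c and starts the caspase cascade. Survival members hold the effectors Bax and Bak1 in check, and the BH3-only members Bad, Bid and Bcl2l11 (Bim) either neutralise the survival members or activate the effectors. The lower hair follicle is removed by apoptosis each time a hair cycle enters catagen, its regression phase. Bcl2 is also known in hair for the survival of pigment cells, since mice without it turn grey.

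Hos: HR-1 is a hairless mouse with a recessive mutation of Hr, which encodes a nuclear corepressor needed for the follicle to regrow. Follicles were cut by laser from frozen dorsal skin of untreated male N1 mice on day 14 after birth, and 50 to 70 follicles were pooled per sample. The homozygous samples (HrHos/HrHos, replicates 2 and 3, here mutant 2 and mutant 3) and the heterozygous samples (+/HrHos, replicates 3 and 4, here control 3 and control 4) number 2 per group. They come from a cross of a Hos: HR-1 male with a +/HrHos female of an HR-1 by ICR cross. Both groups therefore carry at least 1 mutant allele on a mixed background, no sample is wild type, and the captured part of the follicle is not named in the labels. The strain field of mutant 3 gives the heterozygous genotype, against its title, and its source name carries the number of mutant 2, so the Bcl2 value and the family median are also given without that sample. The labels do not tie samples to animals, and whether both mutants came from separate animals is not settled by them, so p-values reflect only how far these samples spread, and part of that may be technical.

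The values are probe set intensities from 1-colour arrays, with array medians from 43.5 to 52.6. Hair shaft keratins marked the tissue as follicle: 12 of the 12 measured lay above the array median in every sample. The summed levels of some marker lists parted the genotypes, and no marker was listed at 0. The summed intensity of the hair keratins was 10980 and 11290 in the controls and 16650 and 19940 in the mutants, with 12 of 12 tested genes above 0 in the difference of mutants minus controls. The sum of 9 dermal fibroblast genes was 12300 and 9956 against 6020 and 6201 (8 of 9 tested below 0), and that of 6 adipocyte genes was 13060 and 11920 against 9951 and 5504 (5 of 5 tested below 0). The sum of 6 inner root sheath genes was 30640 and 27220 against 22450 and 23620, with 4 of 6 tested below 0. Among these genes Krt27 and Krt71 were apart and lower in the mutants, and Krt72 and Gata3 were apart and higher. The groups overlapped in the brightest, Krt25 and Tchh. The sum of 9 melanocyte genes was 1887 and 4557 against 3836 and 7339 (8 of 9 tested above 0), and these sums overlapped. Within that list Pmel, a pigment-cell gene for a structural protein of melanosomes, was apart, at 311.8 and 181.6 against 677.5 and 1300.6 (log2 difference 1.84, limma unadjusted p = 0.00426, adjusted p = 1.00). It is named after its values were seen. Sox10 was apart the other way, at 111.8 and 143.4 against 75.1 and 102.7 (log2 difference -0.40), and the groups overlapped in the rest of the list. The 9 spike-in controls of the hybridization all read lower in mutant 2 and mutant 3. Their mean log2 difference was -1.10, or 2.14-fold between the groups. The control gene Gapdh had a 3' to middle ratio of 17.2 and 30.1 against 15.4 and 14.8. The same ratio of the control gene Actb overlapped, at 42.1 and 11.3 against 45.9 and 33.7. In pooled follicle tissue, fewer cells of a type and less RNA per cell cannot be told apart.

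Among the tested family probe sets, Bcl2 had the largest difference and was higher in homozygous follicles, though its probe set was dim and passed the filter on low values only through the homozygous samples. Read at the brightest probe set of each gene, the other measured members lay close together in both groups or varied as much within a genotype as between them. Differences are homozygous minus heterozygous on the scale log2(intensity + 32), tested by limma over all 13576 kept probe sets with Benjamini-Hochberg adjustment. None of the 13 family probe sets passed an adjusted p of 0.05 in limma, and 0 of 13 had an unadjusted p under 0.05. Over the whole array 0% passed the adjusted threshold and 2.3% had an unadjusted p under 0.05. Of the 6 genes, each read at its brightest probe set, 2 lay above 0 and 4 below, with a median log2 difference of -0.11, against a median of 0.01 over all kept probe sets, of which 51.7% lay above 0 and 48.3% below. The median was -0.07 for the 3 survival genes and -0.14 for the 3 death-promoting genes that could be tested. The median of the 6 genes was -0.124 without mutant 3, -0.0442 without mutant 2, -0.0577 without control 3 and -0.0139 without control 4. It was -0.0535 with mutant 3 counted as heterozygous. The brightest probe set was chosen again in each of these fits. Without mutant 2 that of Bcl2l11 was 1456005_a_at (log2 difference 0.14), where 1435448_at gave -0.11.

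**Figure D1:**
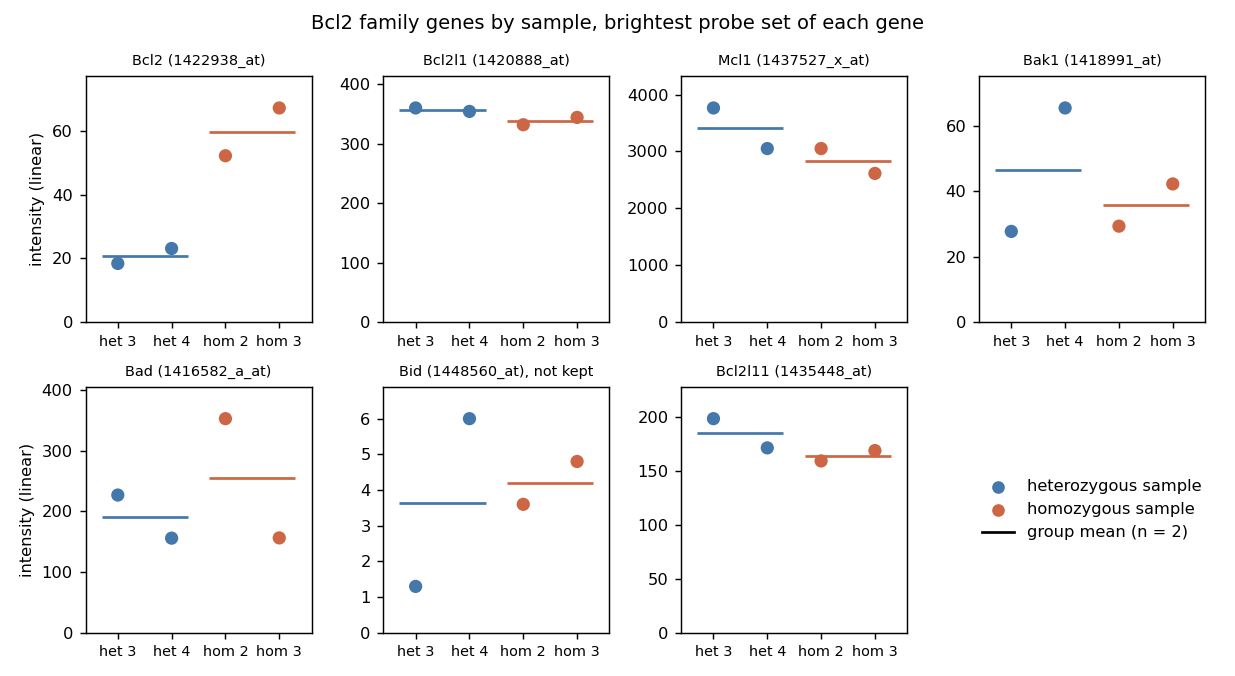
Linear probe set intensity (y axis, starting at 0 in each panel) in each of the 4 samples (x axis) for the brightest probe set of 7 genes; points are samples and bars are means of 2. Bcl2 read 18.4 and 23.1 in control and 52.2 and 67.2 in mutant samples, Bcl2l1 stayed between 331.8 and 360, and Bid lay between 1.3 and 6 throughout.

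Bcl2, the founding survival gene of the family, was measured by 1 probe set (1422938_at). It read 18.4 and 23.1 in controls 3 and 4, and 52.2 and 67.2 in mutants 2 and 3. Both mutants were above both controls, an order shared by 13.6% of all kept probe sets. The log2 difference was 0.79 ± 0.38 (SE, n = 2 per group), or 1.73-fold on that scale, with a 95% interval from -0.04 to 1.63. The limma unadjusted p was 0.0598 and the adjusted p was 1.00. The control mean intensity of 20.8 lay under the lowest mean kept by the filter, 30.4, and the mutant mean of 59.7 above it, so Bcl2 entered the test through the mutants alone. With no filter its limma unadjusted p was 0.0690 and the adjusted p was 1.00.

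The fold on the log2 scale is smaller than the 2.88-fold ratio of the mean intensities because Bcl2 was dim, with a heterozygous mean under the 32 added before taking logs. Its intensity was 0.389 and 0.471 of the array median in the controls and 1.20 and 1.28 of it in the mutants. With 16 added instead the log2 difference was 1.04, and with 64 it was 0.54. Without mutant 3 the log2 difference was 0.68 ± 0.61 (limma unadjusted p = 0.274), and with that sample counted as heterozygous, as its strain field says, it was 0.37 ± 0.51. The hair keratin sum parted the genotypes in the direction of Bcl2. The inner root sheath, fibroblast and adipocyte sums, the spike-ins and the Gapdh ratio parted them in the other direction. The melanocyte sum and the Actb ratio did not part them. Among melanocyte genes Pmel parted the genotypes in the direction of Bcl2 and Sox10 in the other. The part of all these in the Bcl2 values was not tested.

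The sequences in front of Bcl2 and of Bcl2l11 (Bim) show what the promoters of a survival gene and of a death-promoting gene look like in this family. They are the 250 bases before the annotated start, from RefSeq on GRCm38.p6, 5′ to 3′ on the strand of the gene. Capitals mark GC boxes (GGGCGG, or CCGCCC on the other strand), the core of the cAMP response element (TGACGT, or ACGTCA) and CCAAT boxes (CCAAT, or ATTGG).
Bcl2, chr1:106714291-106714540, minus strand: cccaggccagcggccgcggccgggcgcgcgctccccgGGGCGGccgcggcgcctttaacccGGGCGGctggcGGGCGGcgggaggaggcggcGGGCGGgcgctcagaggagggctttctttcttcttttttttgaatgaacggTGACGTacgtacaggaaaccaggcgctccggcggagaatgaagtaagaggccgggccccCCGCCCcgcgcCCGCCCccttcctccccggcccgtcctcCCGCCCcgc
Bcl2l11, chr2:128125788-128126037, plus strand: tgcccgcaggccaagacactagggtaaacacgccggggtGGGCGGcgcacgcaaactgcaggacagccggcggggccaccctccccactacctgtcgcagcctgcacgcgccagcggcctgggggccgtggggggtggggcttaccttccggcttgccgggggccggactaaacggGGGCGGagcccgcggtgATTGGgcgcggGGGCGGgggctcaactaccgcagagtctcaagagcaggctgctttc

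The Bcl2 stretch held 7 GC boxes and 1 cAMP response element core, and the Bcl2l11 stretch held 3 GC boxes and 1 CCAAT box. The RefSeq table gave 12 windows for all 8 genes, each from 250 bases before to 50 after a start. Of these 7, from 6 genes, held a GC box, against 35.7% of 32851 windows of all genes. The cAMP response element core was in the Bcl2 window and in no other family window, against 7.51% of all windows. None of the 12 held the TATA box letters TATAAA on either strand, against 13.6% of all windows. The nuclear receptor core motif AGGTCA, searched because Hr acts with nuclear receptors, was in 1 family window, of Bcl2l1, against 16.3% of all windows. The Bcl2 window was 76% G and C, higher than 96.9% of all windows. These matches describe letters and were not tested against the expression values.

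Bcl2l1, which encodes the survival protein Bcl-xL, was the steadiest of the tested members. Its brightest probe set (1420888_at) read 360 and 354.2 in controls 3 and 4, and 331.8 and 344.1 in mutants 2 and 3. The highest sample was 1.08-fold above the lowest, and only 0.192% of kept probe sets had a smaller SD over the 4 samples. Both mutant samples lay below both controls, an order shared by 13.3% of kept probe sets, but by a log2 difference of only -0.07 ± 0.44 (SE, n = 2 per group; limma unadjusted p = 0.870, adjusted p = 1.00). The SE is much wider than the spread of this probe set because limma draws each variance towards that of probe sets of like intensity. The 95% interval, -1.03 to 0.89, corresponds to folds from 0.488 to 1.85. The other 3 probe sets of Bcl2l1 read between 2.3 and 7 in all samples, far under the array medians, and did not enter the test.

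Mcl1, a short-lived survival protein, was read by 6 probe sets, all above the array median in every sample. The brightest (1437527_x_at) read 3765.6 and 3051.5 in controls 3 and 4, and 3052 and 2614.5 in mutants 2 and 3. Control 3 was highest, mutant 3 was lowest, and the other two samples were nearly equal. The log2 difference was -0.26 ± 0.38 (SE, n = 2 per group; limma unadjusted p = 0.503, adjusted p = 1.00).

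Of the 6 Mcl1 probe sets, 5 lay below 0 and 1 above, from -0.39 to 0.11. The lowest belonged to 1456381_x_at, which read 1656.3 and 1333.1 against 1252.4 and 1013.4 and was the 1 Mcl1 probe set whose groups did not overlap. The probe sets split by kind within the heterozygous pair. In the 3 with the suffix _x_at, whose probes can match other transcripts, control 3 was above control 4 by 0.30, 0.43 and 0.31 (log2). In the 3 with the suffix _at it was below, with log2 differences of -1.12, -0.70 and -0.12.

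The widest of these was 1448503_at, which read 421.9 and 953.6 in the controls and 650.4 and 569 in the mutants. This 2.26-fold gap between samples of 1 genotype was wider than any genotype difference of Mcl1. The 3' to middle ratio of the control gene Actb, which rises when RNA is shortened, was 42.1 and 11.3 in controls 3 and 4, and 45.9 and 33.7 in mutants 2 and 3. The Gapdh ratio ran the other way within the controls, at 17.2 and 30.1, and was 15.4 and 14.8 in the mutants. The part of either ratio in the split of the Mcl1 probe sets was not tested.

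**Figure D2:**
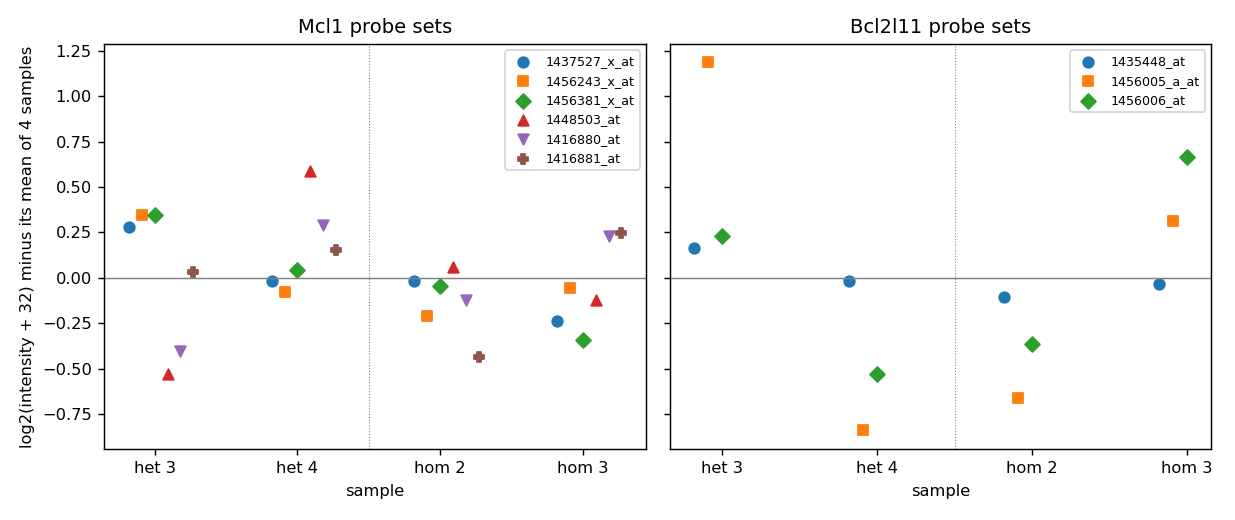
Each kept probe set of Mcl1 (left, 6) and Bcl2l11 (right, 3) in the 4 samples, as log2(intensity + 32) minus its own mean of 4 samples (y axis). In control 3 the 3 Mcl1 probe sets with the suffix _x_at lie together above 0 while 1448503_at and 1416880_at lie below it, and 1456005_a_at of Bcl2l11 spans the widest range.

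Among the effectors, Bak1, which forms the pore in the mitochondrial membrane together with or in place of Bax, was dim. Its brighter probe set (1418991_at) read 27.7 and 65.4 in controls 3 and 4, and 29.3 and 42.2 in mutants 2 and 3. Both mutant values fell between the control ones, and the log2 difference was -0.18 ± 0.40 (SE, n = 2 per group; limma unadjusted p = 0.670, adjusted p = 1.00). The other Bak1 probe set (1425716_s_at) read 25.8 and 9.4 against 25.9 and 6, too dim to be tested.

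The BH3-only genes gave no common direction. Bad, whose protein is held inactive by 14-3-3 proteins when growth factors are present, read 226.9 and 155.9 in controls 3 and 4, and 352.7 and 156.3 in mutants 2 and 3 (1416582_a_at). Mutant 2 stood above the other samples, and mutant 3 was level with control 4. The log2 difference was 0.29 ± 0.47 (SE, n = 2 per group; limma unadjusted p = 0.557, adjusted p = 1.00), and it was -0.23 without mutant 2. A second Bad probe set (1416583_at) stayed at or under 4.2.

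Bid, which links death receptors to the mitochondria after caspase-8 cuts it, was at the bottom of the scale. Its probe sets read 1.3 and 6 against 3.6 and 4.8 (1448560_at), and 2.1 and 1.8 against 2 and 1.7 (1417045_at). All 8 values were far below the array medians, and neither probe set entered the test.

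Bcl2l11 encodes Bim, a BH3-only protein induced when survival signals are withdrawn. Its brightest probe set (1435448_at) read 198.6 and 171.5 in controls 3 and 4, and 159.4 and 169 in mutants 2 and 3. Both mutants were below both controls, with mutant 3 close under control 4. The log2 difference was -0.14 ± 0.39 (SE, n = 2 per group; limma unadjusted p = 0.722, adjusted p = 1.00), and its SD over the 4 samples was larger than that of only 3.31% of kept probe sets.

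A second Bcl2l11 probe set (1456005_a_at), of similar average intensity, varied far more between samples. It read 418.7 and 78.5 in controls 3 and 4, and 93.2 and 214.1 in mutants 2 and 3. Its highest value was 5.33-fold above its lowest, both within the heterozygous pair, and its SD was larger than that of 97.8% of kept probe sets. The log2 difference was -0.35 ± 0.62; it turned to 0.67 without control 3 and became -1.36 without control 4 (limma unadjusted p = 0.0142), so each control sample decided its direction or size.

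Another (1456006_at) shared that order in part, at 41.7 and 11.6 against 16.9 and 67.9, with a log2 difference of 0.30 ± 0.47. It was dim, with a control mean of 26.65 and a mutant mean of 42.4. This probe set no longer passed the filter when control 3 or mutant 3 was left out. In both of these probe sets control 3 and mutant 3 were the high samples. The genotypes overlapped in both. The remaining Bcl2l11 probe sets, at 3.4 to 12.4 and 10.4 to 43.3, did not enter the test.

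**Figure D3:**
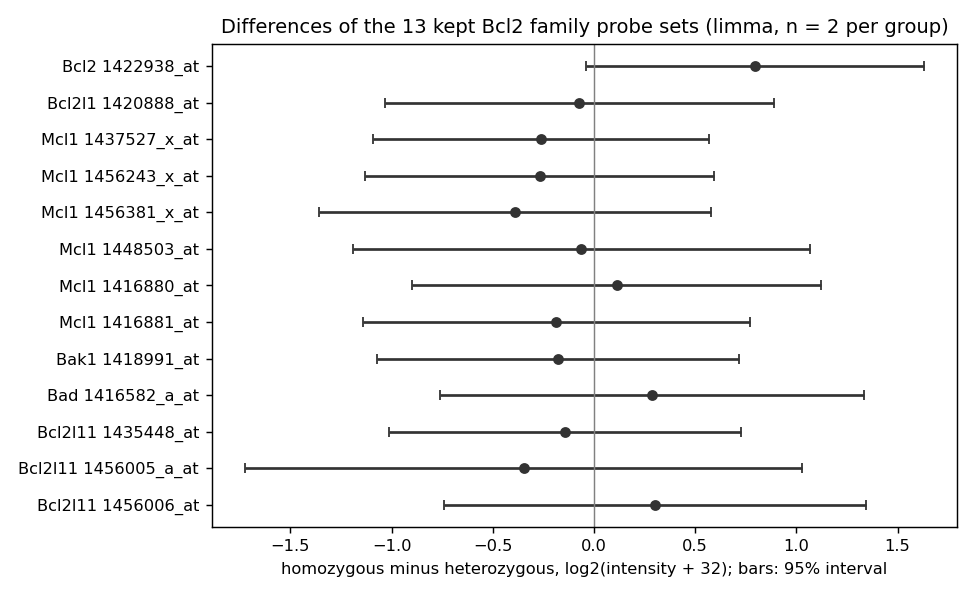
Homozygous minus heterozygous difference in log2(intensity + 32) (x axis) for the 13 kept probe sets of 6 genes, with 95% limma intervals, n = 2 per group. Every interval contains 0; the one for Bcl2 runs from -0.04 to 1.63, and 9 of the 13 differences lie below 0.

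Across the 13 kept probe sets 4 lay above 0 and 9 below, beside 51.7% above and 48.3% below among all kept probe sets. The genotypes did not overlap in 4 of the 13 (Bcl2 higher, and 1 probe set each of Bcl2l1, Mcl1 and Bcl2l11 lower), beside 26.9% of all kept probe sets, so that count was near the background. The median half-width of the unadjusted 95% limma interval was 0.93 (log2), so such intervals mostly could not tell changes up to 1.90-fold from none. The adjusted threshold was stricter. No kept probe set passed it, though log2 differences over the array ran from -2.93 to 2.40. The smallest p an exact permutation test of 2 samples against 2 can give is 0.333 (two-sided), so no single value could pass that test.

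The other apoptosis genes around the family showed no tested change either. Lists were drawn up for other Bcl2 family and Bcl2-binding genes, for caspases with the apoptosome, for inhibitors of apoptosis, for death receptors and for upstream regulators. Of 46 genes of these lists that entered the test, 24 lay above 0 and 22 below, with a median of 0.01. None passed the adjusted limma test and 0 of 46 had an unadjusted p under 0.05. Both mutant samples lay above both controls in 6 of the 46 and below in 7, beside 13.6% and 13.3% of all kept probe sets.

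Of 19 genes listed as closest to the family 14 had a probe set and 10 entered the test. Of these 6 lay above 0 and 4 below, with a median log2 difference of 0.09. Bcl2l2, which encodes the survival protein Bcl-w, read 65.6 and 70.7 in the controls and 103.4 and 106.3 in the mutants. As for Bcl2, both mutants were above both controls, with a log2 difference of 0.45 ± 0.35 (limma unadjusted p = 0.226). Bnip3, a mitochondrial protein induced by low oxygen, read 177.3 and 258.5 against 127.7 and 125.3 (-0.64 ± 0.40, limma unadjusted p = 0.140). Bcl2l14 read 61.2 and 88.7 against 26.1 and 83.6 (-0.37 ± 0.42), while another probe set of it gave 0.53.

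At and downstream of the mitochondria, 13 of 16 listed genes were tested. They cover the apoptosome, caspases, released factors and the Vdac channels of the mitochondria. Of the 13 genes, 7 lay above 0 and 6 below, with a median of 0.01. Dffa, the inhibitor of the nuclease that cuts DNA in apoptosis, read 37.9 and 78.2 against 84.6 and 100.1 (0.50 ± 0.38). The channel gene Vdac1 differed by -0.24 ± 0.26 and Vdac3 by 0.27 ± 0.46. Of the 3 other kept probe sets of Vdac1, 1 was below 0 (-0.33) and 2 were above (0.26 and 0.15).

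All 5 listed inhibitors of apoptosis were tested; 1 lay above 0 and 4 below, with a median of -0.28. The 1 above was Birc5, which encodes survivin and is made mainly by dividing cells; it read 58.8 and 102.9 in the controls and 169.2 and 148.6 in the mutants (0.78 ± 0.38, limma unadjusted p = 0.0659). Birc3 read 174.8 and 172.2 against 86.9 and 141.5 (-0.52 ± 0.39). Xiap, a direct caspase inhibitor, read 99.3 and 294.3 against 201.8 and 59.5 (-0.50 ± 0.55), with overlapping groups.

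In the death receptor pathway 6 of 10 listed genes were tested and 5 of the 6 lay above 0, with a median of 0.36. Cflar, the inhibitor of caspase-8 activation, read 72.4 and 84.5 against 144.7 and 124.1 (0.59 ± 0.36, limma unadjusted p = 0.130), but its other kept probe set gave -0.52. Tnfrsf1a, a receptor for tumour necrosis factor, differed by 0.45 ± 0.51, and the adaptor Traf2 by 0.42 ± 0.51.

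Of 13 listed upstream regulators 12 were tested; 5 lay above 0 and 7 below, with a median of -0.09. Dynll1, a dynein light chain that binds Bim, read 12150.4 and 16318.3 in the controls and 9800.7 and 8975.4 in the mutants (-0.58 ± 0.27, limma unadjusted p = 0.0514), and its other kept probe sets gave -0.49 and -0.07. Ywhaz, a 14-3-3 protein of the kind that binds Bad, differed by -0.61 ± 0.37; of its 6 other kept probe sets 4 were below 0 and 2 above. Foxo3, a transcription factor that can induce Bcl2l11, read 3240.4 and 6342.8 against 1863.7 and 4048.7 (-0.72 ± 0.48), with overlapping groups.

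**Figure D4:**
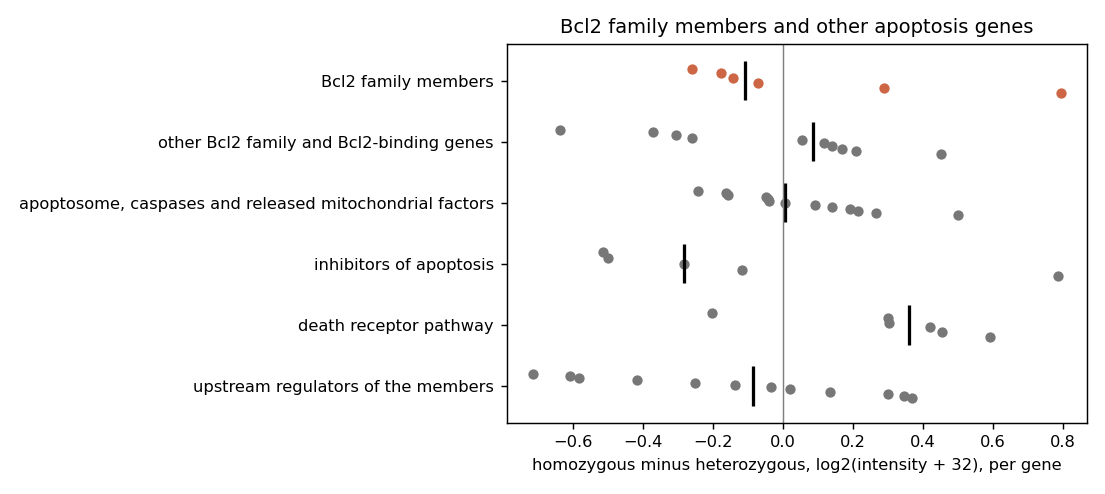
Homozygous minus heterozygous difference in log2(intensity + 32) per gene (x axis) for the 6 tested Bcl2 family genes and 5 lists of other apoptosis genes (rows); each point is the brightest probe set of a gene and the black bar is the median. Medians run from -0.28 for the inhibitors of apoptosis to 0.36 for the death receptor pathway. Bcl2 is the rightmost point of all at 0.79, with Birc5 close by at 0.78. Bcl2 was dim and passed the filter only through the homozygous samples.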

How the data were processed

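Each array gave 1 linear intensity per probe set, deposited after the authors had brought all arrays to one level: leaving out the lowest and highest 2%, the mean was 165 on each of the 4. The arrays are 1-colour Affymetrix arrays hybridised with biotin-labelled cRNA made from amplified RNA, per the labels' protocols. The software and the background correction behind the intensities were not found in the sources used here. Arrays have no read depth, and their number limits precision.

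Of 22690 probe sets, 64 controls were set aside. The 60% of the others that had the highest mean log2(intensity + 32) were kept (13576) and fitted in R 4.3.3 by limma 3.58.1 (lmFit, then eBayes with an intensity trend, two-sided). P-values were adjusted by Benjamini-Hochberg over every kept probe set, with a threshold of 0.05. The fit was checked on simulated data. Names came from the annotation table of the array platform; 20351 of the 20380 probe sets with 1 symbol matched a current gene record, and 0 symbols differed. Where counts are per gene, the brightest probe set stands for the gene.

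Described are all member probe sets, the 3 genes of smallest unadjusted p from each apoptosis list, and the 3 genes most alike to Bcl2 and to Mcl1. Samples were grouped by title. The members and lists were chosen with earlier results of these data known.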

Additional observations from a re-analysis of the deposited data

How the results depend on the processing

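Under 11 of the 12 alternatives tried limma was run again, and 0 family probe sets passed the adjusted threshold in any. Over the whole array the count of calls ranged from 0 to 17 with samples left out, the 17 coming without control 3 and without any family probe set among them. Of 141 differences of single family probe sets under the alternatives, 128 kept their direction and 13 turned, and none of these was a called difference. Settings that changed only the filter or the variance estimate left each difference as it was, so their rows could not turn. Of the 13 turns, 10 came with samples left out and 3 in the other settings. For Bcl2 both mutants read above both controls, so leaving out a sample or changing the pseudocount could not turn its sign. The Bcl2 difference ran from 1.04 with a pseudocount of 16 to 0.37 with mutant 3 placed among the controls, as its strain field says.

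With that placement, the median over the tested family genes was -0.054, and 3 probe sets turned: 1416880_at of Mcl1 (-0.16), 1448503_at of Mcl1 (0.080) and 1456006_at of Bcl2l11 (-0.49). Leaving out each sample in turn moved the median from -0.124 to -0.0139. The probe sets that turned with a sample left out ranged from -0.24 to 0.46 (1416880_at of Mcl1), -0.62 to 0.50 (1448503_at of Mcl1), -1.36 to 0.67 (1456005_a_at of Bcl2l11), -0.077 to 0.82 (1456006_at of Bcl2l11), -0.53 to 0.18 (1418991_at of Bak1), -0.23 to 0.80 (1416582_a_at of Bad) and -0.53 to 0.15 (1416881_at of Mcl1). The cause was not tested. No paired analysis was possible because the groups share only 1 replicate number.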

Other observations

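By the distance between log2 values centred on their own mean over the 4 samples, Tfeb, Senp1 and Ada lay closest to Bcl2 among 8551 genes, at root mean square distances of 0.0106, 0.0267 and 0.0417, where the median gene lay at 0.510. Tfeb, a transcription factor of lysosome genes, read 34.9 and 42.6 in the controls and 81.3 and 101.7 in the mutants. Ada was dim like Bcl2, at 27 and 29.3 in the controls and 63 and 86.7 in the mutants. Its control values lay under the lowest mean kept by the filter, 30.4, so it too passed through the mutants alone. Nup93, Frs3 and Mtg1 lay closest to the brightest probe set of Mcl1, at 0.00698, 0.0101 and 0.0105, where the median gene lay at 0.368. Nup93, a nuclear pore gene, read 277 and 221.5 against 218.7 and 185. With 4 samples such a likeness describes these arrays only.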
